A study of Mus musculus with 2 samples.

Results

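The 9 genes described here are the core of the Hedgehog pathway: the ligand genes Shh, Ihh and Dhh, the receptor genes Ptch1 and Smo, the ligand-trapping gene Hhip, and the transcription factor genes Gli1, Gli2 and Gli3. They were picked as members of 1 pathway, by a rule that used no measured value but was written with earlier results of these data known, and are 9 of 21887 protein-coding genes of the mouse annotation. Each was looked up in a table that names the genes nearest to regions whose DNA methylation differed between 2 whole-genome bisulfite libraries of the E14.5 mouse pancreas. One library came from Ngn3eGFP/eGFP embryos, which carry an eGFP reporter on both alleles of Ngn3 (current symbol Neurog3) and are null for it, and the other from heterozygous Ngn3eGFP/+ embryos. Both were of a mixed background, mostly ICR with small parts of C57Bl/6 and 129svev, and both were sorted for eGFP, so the heterozygous cells too had lost 1 copy of the gene.

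Each genotype had 1 library, stated at about 400000000 reads, and no replicate. Differences are therefore described without p-values and without a check between replicates. The labels call the null cells endocrine progenitors and the heterozygous cells islet progenitors. Genotype cannot be told apart from the stage or composition of what was sorted. The labels do not say how many embryos went into a library, and the labelled cell type could not be set against marker genes, since the table holds no expression. The table lists names only: 3230 under higher methylation in null cells (the higher list) and 429 under lower methylation in null cells (the lower list). It gives no methylation level, position, coverage or number of regions, so how much methylation differed at a gene, and where, is unknown.

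Hedgehog ligands are secreted proteins that bind Ptch1, which otherwise holds the membrane protein Smo inactive. Once freed, Smo signals through the primary cilium to the Gli zinc finger factors, of which Gli1 mainly activates and Gli3 mainly represses transcription when the ligand is missing. Ptch1, Hhip and Gli1 are themselves induced by the pathway, and both Ptch1 and Hhip bind and hold back the ligand. In the mouse embryo Shh is kept out of the endoderm that forms the pancreas, and its forced expression there disturbs pancreas formation. Loss of Hhip in mice reduces growth of the pancreas and its islets.

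Of the 9 genes, 3 were named, all in the higher list: Shh, Ptch1 and Hhip. That is 33.3% of the members, against 12.1% of all protein-coding genes in the same list. None of the 9 was in the lower list, which held 1.51% of all protein-coding genes. By role these were 1 of 3 ligand genes, 2 of 3 genes whose products meet the ligand or transduce it at the membrane, and 0 of 3 Gli genes. Ihh, Dhh, Smo, Gli1, Gli2 and Gli3 were in neither list. A gene in neither list is not shown to be equally methylated in both libraries, because the coverage and the threshold behind the lists are not given.

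The promoters of 7 members, all but Shh and Gli1, were taken from the RefSeq promoter table for GRCm38.p6. The stretches of 4 are shown because they set both named members with a promoter there beside a CpG-rich and a CpG-poorer unnamed one; CpG is the dinucleotide that carries most DNA methylation in mammals. They are written 5′ to 3′ on the gene's strand, with every CpG in capitals. Each holds the 250 bases before the annotated start, except that for Hhip only the 198 bases before the annotated gene span are shown. Ptch1 (chr13:63565736-63565985, minus strand) and Hhip (chr8:80058061-80058258, minus strand) were named in the higher list. Gli3 (chr13:15463473-15463722, plus strand) and Smo (chr6:29735247-29735496, plus strand) were in neither list.
Ptch1: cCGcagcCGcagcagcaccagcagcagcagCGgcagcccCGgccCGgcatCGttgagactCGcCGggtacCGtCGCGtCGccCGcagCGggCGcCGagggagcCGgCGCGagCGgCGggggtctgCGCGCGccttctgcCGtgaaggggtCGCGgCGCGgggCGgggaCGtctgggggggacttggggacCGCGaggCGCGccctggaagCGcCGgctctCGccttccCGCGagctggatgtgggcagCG
Hhip: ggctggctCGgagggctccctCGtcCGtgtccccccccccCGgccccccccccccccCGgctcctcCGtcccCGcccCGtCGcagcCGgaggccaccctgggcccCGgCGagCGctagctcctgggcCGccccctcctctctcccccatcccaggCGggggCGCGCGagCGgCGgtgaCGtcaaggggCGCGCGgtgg
Gli3: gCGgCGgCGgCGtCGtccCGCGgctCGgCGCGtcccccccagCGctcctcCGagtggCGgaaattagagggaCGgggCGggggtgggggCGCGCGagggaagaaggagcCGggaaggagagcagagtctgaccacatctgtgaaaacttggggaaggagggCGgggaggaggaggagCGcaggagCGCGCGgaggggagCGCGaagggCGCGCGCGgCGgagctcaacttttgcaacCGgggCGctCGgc
Smo: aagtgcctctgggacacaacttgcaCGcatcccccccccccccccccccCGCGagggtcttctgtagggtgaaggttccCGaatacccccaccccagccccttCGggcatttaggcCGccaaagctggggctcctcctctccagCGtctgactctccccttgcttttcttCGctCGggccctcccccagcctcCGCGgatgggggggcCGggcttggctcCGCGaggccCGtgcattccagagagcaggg

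Ptch1, the receptor gene, had the most CpGs of the 7, with 41 in the 250 bases before its annotated start. This exceeded 98.9% of the 32851 promoters in the table. That start lies 7.73 kb inside the annotated gene, whose span begins at a further start upstream. Hhip had 28 CpGs, 24 of them in the stretch shown, more than 92.4% of all promoters. Among unnamed members, Gli3 had 34, Ihh 24, Gli2 22, Smo 15 and Dhh 9. The median was 6 over all promoters and 10 over those of protein-coding genes, so that Dhh lay between these medians. Of these 7, the 2 named members and the 5 unnamed ones overlapped in CpG number, with Gli3 between Ptch1 and Hhip. The third named member, Shh, is not part of this comparison.

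The ratio of observed to expected CpGs, which allows for base composition, ordered the members slightly differently. It was 1.08 for Ptch1 and 0.80 for Hhip, against 1.13 for Gli3, 0.78 for Ihh, 0.78 for Gli2, 0.54 for Smo and 0.43 for Dhh. Its median was 0.78 over the 7 members, 0.62 over promoters of protein-coding genes in the higher list and 0.53 over those of all protein-coding genes. The 9-letter Gli binding motif GACCACCCA and its reverse complement TGGGTGGTC were in 0 of the 7 windows and in 0.225% of all promoters. The shorter core CCACCCA, which the motif contains, was also in 0 of the 7 and in 8.11% of all promoters. These are matches of letters in 250 bases and say nothing of Gli binding elsewhere. Whether any methylation difference lay in these windows is unknown.

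**Figure D1:**
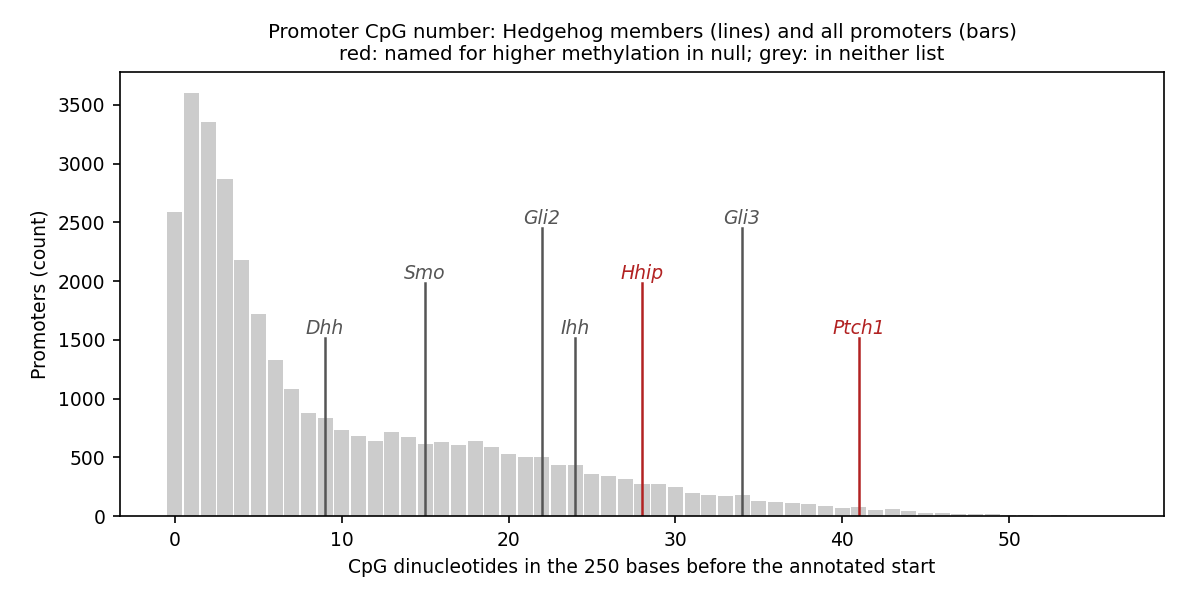
CpG dinucleotides in the 250 bases before the annotated start (x axis) and number of promoters with that many (y axis, grey bars, 32851 promoters). Vertical lines mark the 7 members with a promoter in the table, red for Ptch1 (41) and Hhip (28), which were named for higher methylation in null cells, and dark grey for the 5 in neither list; line heights only keep the names apart.

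Among the ligand genes, Shh was named and Ihh and Dhh were not. Shh encodes Sonic hedgehog, the ligand that patterns the neural tube, the limb and the gut (chromosome 5, 28456840 to 28467101 in GRCm38.p6). Ihh encodes Indian hedgehog, the ligand of growing cartilage and of the gut (chromosome 1, 74945315 to 74951672). Dhh encodes Desert hedgehog, the ligand of testis and nerve sheath (chromosome 15, 98881615 to 98898562). Shh and Ihh are shorter than most genes, at 10.3 kb and 6.36 kb, and Dhh is near the median, at 16.9 kb, against 17.2 kb over all protein-coding genes.

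The ligand genes differ in their surroundings. The territory of a gene is taken here as its own span and the gap, up to the midpoint, to the next protein-coding gene on each side. The rule by which the authors assigned regions to genes is not stated. Shh had a territory of 392 kb, larger than that of 93.1% of protein-coding genes, while Ihh had 19.0 kb and Dhh 19.7 kb, below the median of 45.7 kb. On the higher-coordinate side, 726 kb separate Shh from Rnf32 and 763 kb from Lmbr1. This stretch is known for long-range Shh enhancers, the limb enhancer lying within Lmbr1. Neither Rnf32 nor Lmbr1, and neither Rbm33 nor Cnpy1 on the other side, was in a list.

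The long noncoding RNA gene 9530036O11Rik (chromosome 5, 28466984 to 28719209) was in the higher list too. It overlaps Shh by 118 bases and runs into the gap towards Rnf32. With the names alone, a region near Shh and a region near 9530036O11Rik cannot be told apart, so the entries may stand for 1 region or for several. Beyond this overlap, the closest named gene to Shh was Dpp6, 729 kb away, also in the higher list. For Dhh the closest was the noncoding gene 4930578M01Rik at 87.4 kb, and for Ihh the noncoding gene Gm15179 at 417 kb, both in the higher list.

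Of the genes acting at the membrane, Ptch1 and Hhip were named and Smo was not. Ptch1 (chromosome 13, 63508328 to 63573460) encodes the receptor that binds the ligand and restrains Smo. Hhip (chromosome 8, 79965850 to 80058060) encodes a membrane protein that captures all 3 ligands. Smo (chromosome 6, 29735497 to 29761366) encodes the membrane protein that carries the signal inward.

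Ptch1 and Hhip were also longer and more isolated than Smo. Their lengths were 65.1 kb and 92.2 kb, and that of Smo was 25.9 kb. Their territories were 189 kb and 404 kb, and that of Smo was 37.8 kb. The genes next to Ptch1 are Fancc, 11.0 kb away, and Ercc6l2, 238 kb away, and neither was named, although Aopep, the second gene on the Fancc side, was in the higher list. Hhip lies 189 kb from Anapc10, which was in neither list, as was Abce1 behind it. The closest named gene to Hhip was Smarca5, a chromatin remodeller gene in the higher list, at 642 kb. None of the 4 genes around Smo was named.

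The 3 Gli genes were all in neither list. Gli1 (chromosome 10, 127329882 to 127341579) is the activator that the pathway itself induces, Gli2 (chromosome 1, 118834061 to 119054405) the main activator at the start of a response, and Gli3 (chromosome 13, 15463723 to 15730026) the main repressor. Gli1 is compact, with 11.7 kb and a territory of 15.6 kb, and its lower-coordinate end overlaps Arhgap9, which was in neither list. Gli2 and Gli3 are long and isolated, with 220 kb and 266 kb and territories of 475 kb and 816 kb. Gli3 had the largest territory of the 9 members, above that of 97.6% of protein-coding genes, and no gene of any class within 1 Mb of it was named in either list. There were 23 annotated genes in that window, 5 of them protein-coding. The higher list named 12.1% and the lower list 1.51% of all protein-coding genes, so no named gene among these 5 is a small count. Whether it differs from these shares was not tested, and no share over genes of other classes is given here.

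Each Gli gene has a gene for an activin beta subunit, a secreted TGF-beta family ligand, as its neighbour on the higher-coordinate side. Inhbe, 7.82 kb from Gli1, was in the higher list, and so was Inhbb, 361 kb from Gli2. Inhba, 274 kb from Gli3, was in neither list. Ralb, the gene behind Inhbb, was in the higher list too, at 416 kb from Gli2. Where the regions behind these names lie, and how a region between neighbouring genes was assigned, is not stated. Counted over all 9 members, 4 of the 36 neighbours (2 on each side) were in the higher list, which is 11.1%, against 12.1% of all protein-coding genes, and 0 were in the lower list.

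**Figure D2:**
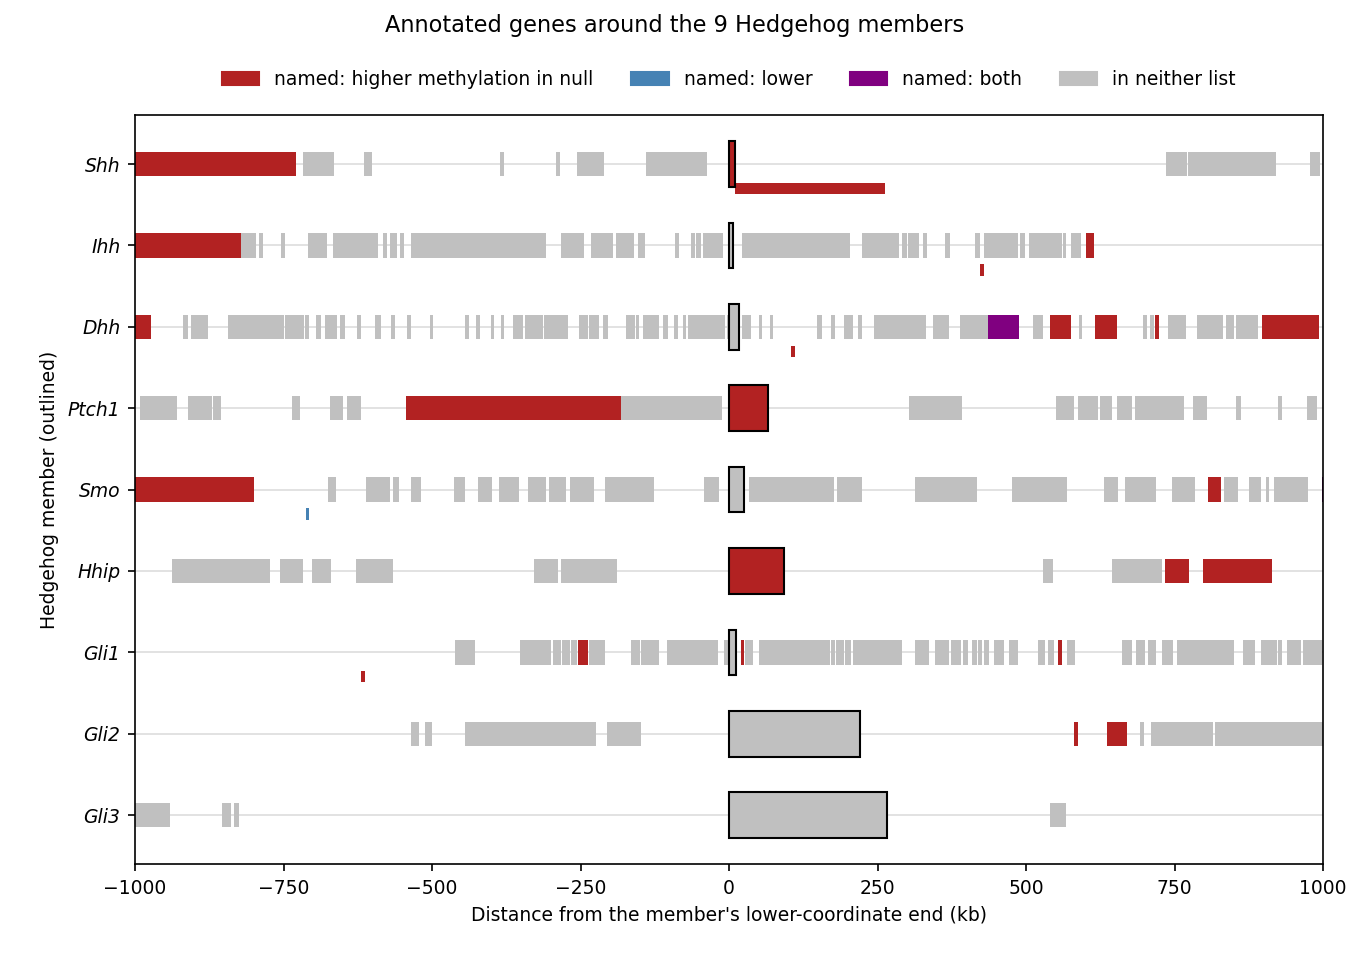
Annotated genes within 1000 kb of the lower-coordinate end of each member (x axis, kb), 1 row per member, outlined in black. Thick bars are protein-coding genes and the thin bars below the line are named noncoding genes; red marks the higher list, blue the lower list, purple both and grey neither. Shh, Ptch1 and Hhip are the red members, and Gli3 has no coloured gene in its row.

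Long and isolated genes were named more often across the genome, and the members have to be read against this. In the higher list were 38.4% of protein-coding genes of the longest decile, that of Gli2 and Gli3, and 21.0% of the next, that of Ptch1 and Hhip. The share was 9.83% in the decile of Smo, 8.13% in that of Dhh and Gli1, 7.68% in that of Shh and 5.85% in that of Ihh. The median of these shares over the 9 members was 9.83%. It is the middle of uneven shares and not the share to expect over the 9 members, so it is not set against the 12.1% of all genes. By territory the order changed. Shh, Hhip, Gli2 and Gli3 were in the largest decile, of which 30.1% was named, and Ptch1 in the next, with 24.4%. Smo was in a decile with 7.58%, Ihh and Dhh with 4.75% and Gli1 with 4.20%, and the median over the 9 members was 24.4%.

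All 3 named members were thus among the 5 with the largest territories, and the remaining 2 of these 5, Gli2 and Gli3, were not named. The 4 members with small territories were all in neither list. The part that territory plays in which members were named was not tested. In the lower list the shares were 3.84% in the largest territory decile and 0.457% in that of Gli1, so that 0 of 9 members there is a small count read against a small share.

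**Figure D3:**
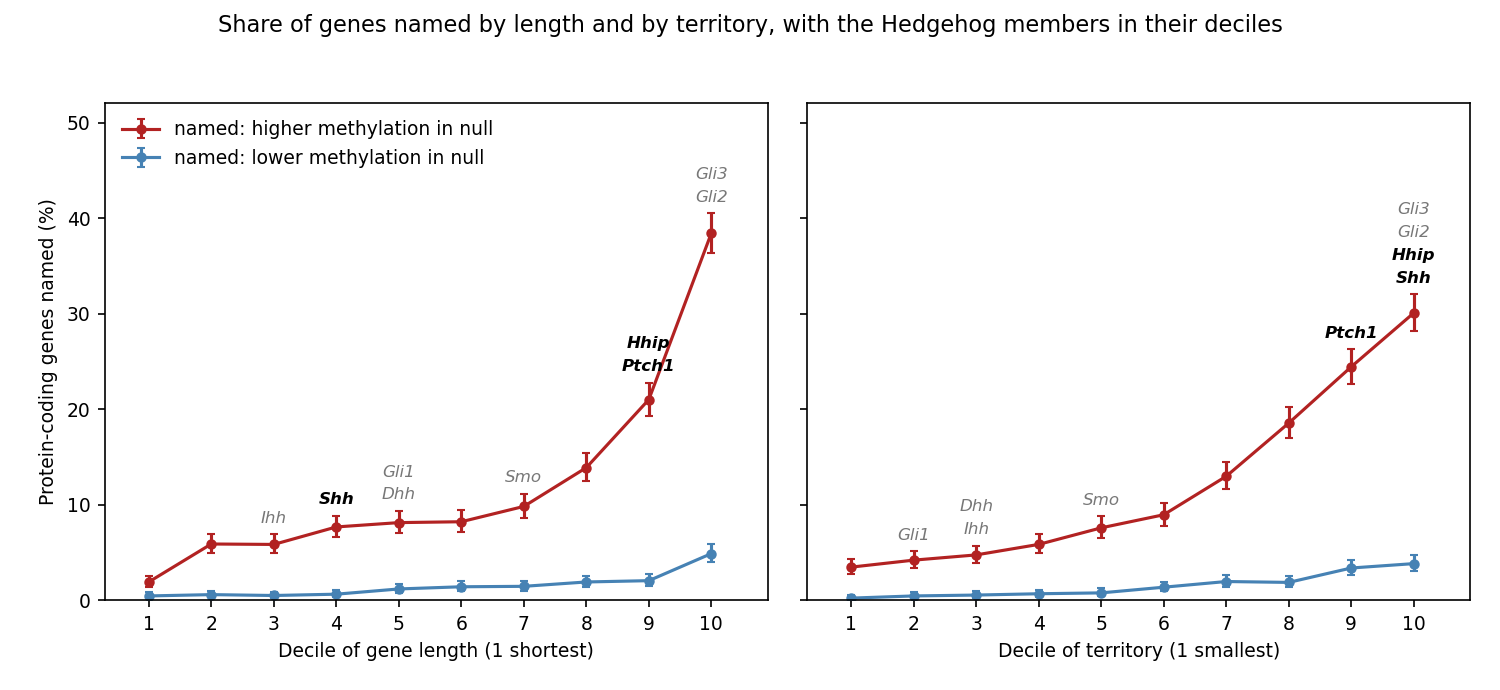
Percent of protein-coding genes named (y axis) in each decile of gene length (left) and of territory (right), for higher (red) and lower (blue) methylation in null cells. Bars are exact Clopper-Pearson 95% intervals, which cover counting error only. These intervals treat genes as independent, although genes next to a named gene were named more often, so they may be too narrow. Members stand above their decile, bold black where named, and Shh moves from decile 4 by length to decile 10 by territory.

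The wider pathway was followed in 5 lists of 63 further genes. The higher list named 9 of them (14.3%, against 12.1% of all protein-coding genes), and the lower list named 3 (4.76%, against 1.51%). The remaining 51 were in neither, and none was in both. The median territory of the 63 was 91.8 kb, against 45.7 kb over all protein-coding genes.

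Of the 6 genes grouped under ligand release, the higher list named 2 and the lower list 0. Of the 6 of the receptor group, each list named 1. In the higher list were thus 33.3% of the release group and 16.7% of the receptor group, and in the lower list 0% and 16.7%. Their median territories, 122 kb and 181 kb, fall in deciles with 18.5% and 24.4% of protein-coding genes in the higher list. In the lower list the shares of these deciles were 1.87% and 3.38%. The counts are of 1 or 2 genes, and whether they differ from such shares was not tested. Disp1, which frees the lipid-bearing ligand from the cell that makes it (chromosome 1, 183086264 to 183221537), and Scube1, of a family of secreted proteins that take part in its release (chromosome 15, 83602583 to 83725051), were in the higher list. So was Boc, a co-receptor that acts with Ptch1 (chromosome 16, 44485045 to 44558870). Gpc3, a cell-surface proteoglycan that competes with Ptch1 for the ligand (chromosome X, 52272426 to 52613974), was in the lower list. Hhat, Disp2, Scube2 and Scube3 of the release group, and Cdon, Gas1 and Lrp2 of the receptor group, were in neither.

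Between Smo and the Gli factors, the higher list named 2 of 23 genes (8.70%, against 12.1% of all protein-coding genes). The lower list named 1 (4.35%, against 1.51%). The median territory of the 23 was 56.3 kb, in a decile with 8.95% named for higher and 1.37% for lower methylation. Their median length was 48.0 kb, in a decile with 13.9% and 1.92%. Whether these small counts differ from such shares was not tested. Sufu, which binds the Gli factors and holds them back (chromosome 19, 46396896 to 46488804), and Arrb1, a beta-arrestin gene whose product takes part in moving Smo (chromosome 7, 99535147 to 99606772), were in the higher list. Csnk1e, a casein kinase gene (chromosome 15, 79417852 to 79455579), was in the lower list. Kif7, Gpr161 and the protein kinase A genes Prkaca, Prkacb and Prkar1a, which limit the Gli activators, were in neither. Of the 14 genes of the primary cilium, among them Ift88, Kif3a and Arl13b, 0 were in either list. Their median territory was 48.1 kb, in a decile of which the higher list named 8.95% and the lower list 1.37%. Their median length was 38.3 kb, in a decile with 13.9% and 1.92%. The 0 of 14 is a small count, and whether it differs from these shares was not tested.

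Among 14 genes known as targets of Hedgehog signalling in some tissue, the higher list held 4 (28.6%, against 12.1% of all protein-coding genes) and the lower list 1 (7.14%, against 1.51%). Those 4 were Bmp4, a ligand that Hedgehog induces in gut mesenchyme (chromosome 14, 46383525 to 46390669), Ccnd1, the cyclin D1 gene (chromosome 7, 144929931 to 144939831), Bcl2, an inhibitor of cell death (chromosome 1, 106538176 to 106714290), and Sfrp1, a Wnt antagonist (chromosome 8, 23411383 to 23449632). Bmp4 is 7.15 kb long and has a territory of 555 kb, so it resembles Shh in being short and isolated. Foxl1, a forkhead gene of gut mesenchyme (chromosome 8, 121127685 to 121130644), was in the lower list, while the adjacent Foxc2, 8.79 kb away, and the target Foxf1 were in neither. The endoderm and endocrine factor genes of this group, Foxa2 and Nkx2-2, were in neither list. The 14 targets had a median territory of 195 kb, which falls in a decile of which the higher list named 24.4%. Their median length was 8.52 kb, which falls in a decile of which it named 7.68%. Their 28.6% was thus near the share by territory and above the share by length. The lower list named 3.38% of this territory decile and 0.640% of this length decile, against 7.14% of the targets. Whether the target counts differ from these shares was not tested.

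**Figure D4:**
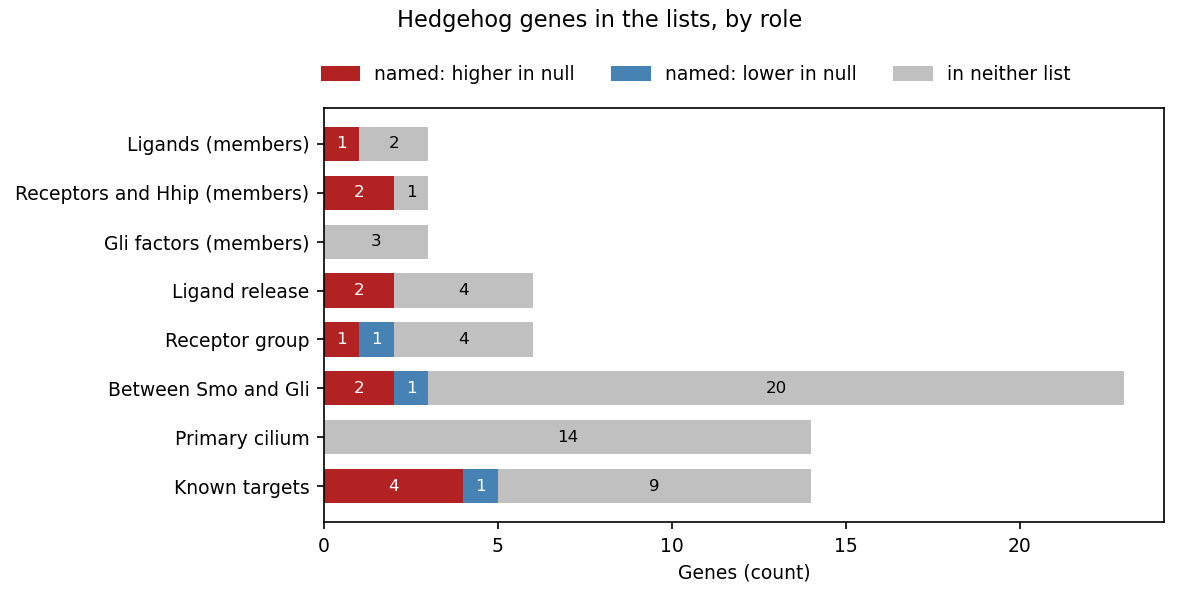
Number of Hedgehog genes (x axis) named for higher (red) or lower (blue) methylation in null cells, or in neither list (grey), with the 9 members in the upper 3 bars and the 63 further genes by role in the 5 bars below. No Gli gene and none of the 14 primary cilium genes was named, where the higher list named 12.1% and the lower list 1.51% of all protein-coding genes.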

How the data were processed

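Per the labels' protocols, eGFP-positive pancreas cells were sorted and lysed, and 75 ng of DNA per library was tagmented with Tn5, bisulfite-converted, amplified for 12 cycles and sequenced as 150 bp paired reads. Trim Galore and the builds mm10 and GRCm38 are listed in the submitters' processing notes. For the aligner, region caller, thresholds and nearest-gene rule, nothing was given in the sources used. The authors deposited 1 table of gene names with 9 columns, and 7 of the 8 columns of the higher list have no header and were read as its continuation.

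Names were matched, ignoring case, to symbols, gene IDs and unique older symbols of RefSeq GRCm38.p6 (3145 of 3230 higher, 406 of 429 lower), with Python 3.11.15 and pandas 2.3.3. A territory is the gene plus, on each side, the gap up to the midpoint with the next protein-coding gene. Deciles run over protein-coding genes of the autosomes, X and Y. The matching by symbol and gene ID and the deciles were tested on simulated lists. Matching by older symbols was not part of that test. Promoter counts use 250 bases before the start, and TATAAA before the start, more frequent as written than reversed on both strands (332 against 98 plus, 323 against 94 minus), showed that sequences follow the gene's strand. The members and lists were chosen with earlier results of these data known. All 9 members, all named genes of the 5 lists and the 2 protein-coding neighbours on each side were taken by rule, and some of the genes so taken are not reported here by name. The search for named genes of any class within 1 Mb, and the unnamed list genes given as examples, were chosen after the values were seen.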

Additional observations from a re-analysis of the deposited data

How the results depend on the processing

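The 3 members and 9 further pathway genes in the higher list, and the 0 and 3 in the lower list, stayed at these counts with current symbols only. The named members were all matched by current symbol and none was in the lower list. Neither this setting nor leaving out genes named in both lists could therefore change the members' counts. Leaving out the primary cilium genes could not change the further genes' counts, as none of the cilium genes was named. It moved the share of further genes from 14.3% to 18.4% in the higher list and from 4.76% to 6.12% in the lower list. The median over the 9 members of the share of their bin that was named depended on the bin. By territory deciles instead of length deciles it was 24.4% in place of 9.83% for the higher list and 3.38% in place of 1.46% for the lower list. With 20 length bins it was 9.69% and 1.28%, and with autosomes alone 10.5% and 1.35%. This median is the middle of 9 uneven shares, so its change need not be a change in the share to expect over the 9 members. With 1 neighbour on each side, 2 of 18 were in the higher list in place of 4 of 36, as fewer genes are counted. The promoter ratio had a median of 0.77 in 300-base windows, and the motif count stayed at 0 there and with the shorter core. No paired analysis was possible because there was 1 library per genotype. Depth per region is unknown, so a gene in neither list may be unmeasured.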

Other observations

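The genes next to the 12 named genes of the wider pathway were looked up after their values were seen. Of 24 adjacent protein-coding genes, 7 were in the higher list (29.2%): Tlr5 beside Disp1, Ttll12 beside Scube1, Nepro beside Boc, Ccdc160 beside Gpc3, Trim8 beside Sufu, Kcnj4 beside Csnk1e and Tpcn2 beside Ccnd1. Mpped1, on the other side of Scube1, was in the lower list. Over all named protein-coding genes, 29.3% of adjacent genes were in the higher list, against 12.4% of the genes adjacent to any protein-coding gene. Gpc3 and Csnk1e, both in the lower list, thus each had a neighbour in the higher list, and Scube1, in the higher list, had 1 neighbour in each list. The protein-coding genes adjacent to Shh and Ptch1 were in neither list.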
